A study of Mus musculus with 6 samples.

Results

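The hypoxia-inducible factor (HIF) pathway was examined in mouse aortic valves at 2 ages, through 9 genes of the 46983 in the gene table: the alpha subunits Hif1a, Epas1 and Hif3a, their partner Arnt, the prolyl hydroxylases Egln1, Egln2 and Egln3, the ubiquitin ligase subunit Vhl and the asparaginyl hydroxylase Hif1an. The genes were chosen by name from this pathway, and all 9 were found and passed the filter on low values. The valves came from wild type C57BL/6J mice, taken either 2 days after birth (postnatal day 2, PND2) or in adulthood at 4 months, and their RNA made up 3 untreated libraries for each age. Each library was labelled a biological replicate and came from the pooled valves of 5 to 6 animals, so the spread between single animals was not measured. Values are in RPKM (read counts divided by exonic length and by the library's total), given as mean ± SD over 3 libraries, and a difference is 4 months minus PND2 on the log2(RPKM + 0.1) scale. It was tested 2-sided with limma over 25903 genes with Benjamini-Hochberg adjustment, and a gene with an adjusted p under 0.05 is said to have risen or fallen.

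Cells sense oxygen through these genes. In oxygen, EGLN enzymes hydroxylate prolines of the alpha subunits, VHL binds the hydroxylated protein as the substrate receptor of a ubiquitin ligase, and the protein is destroyed. HIF1AN, also called factor inhibiting HIF, hydroxylates an asparagine and so blocks the binding of coactivators. When oxygen is low, an alpha subunit pairs with ARNT and activates genes of glycolysis, vessel growth and iron handling, among them some of its own regulators. HIF1A is found in most cell types, EPAS1 (HIF2A) is prominent in endothelium, and HIF3A exists in several isoforms, some of which inhibit the others. Most of this control acts on protein stability, which RNA levels do not measure.

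Of the 9 genes, Epas1 and Egln1 rose, Hif1a, Hif3a, Egln3 and Vhl fell, and Arnt, Egln2 and Hif1an did not pass the test. The 6 genes called compare with 35.8% of all genes tested, or 14.7% that rose and 21.1% that fell. With a stricter filter, of at least 1 RPKM in 3 libraries, 42.3% of 20165 genes were called. A fold over 2 was also reached by Epas1, Hif3a and Egln3, against 17.2% of all genes called with such a fold. In 6 of the 9 genes, and in 50% of all genes tested, no library of PND2 lay within the range of 4 months or the reverse. The median log2 difference over all genes was -0.14, and setting the libraries to equal medians (median scaling) moved it to -0.02. The genes called were 3810 that rose and 5463 that fell, and 4601 and 4129 under median scaling. Relative to the median of -0.14, the differences were 1.47 for Epas1, 0.72 for Egln1, -0.30 for Hif1a, -0.60 for Vhl, -1.07 for Egln3 and -4.64 for Hif3a.

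**Figure D1:**
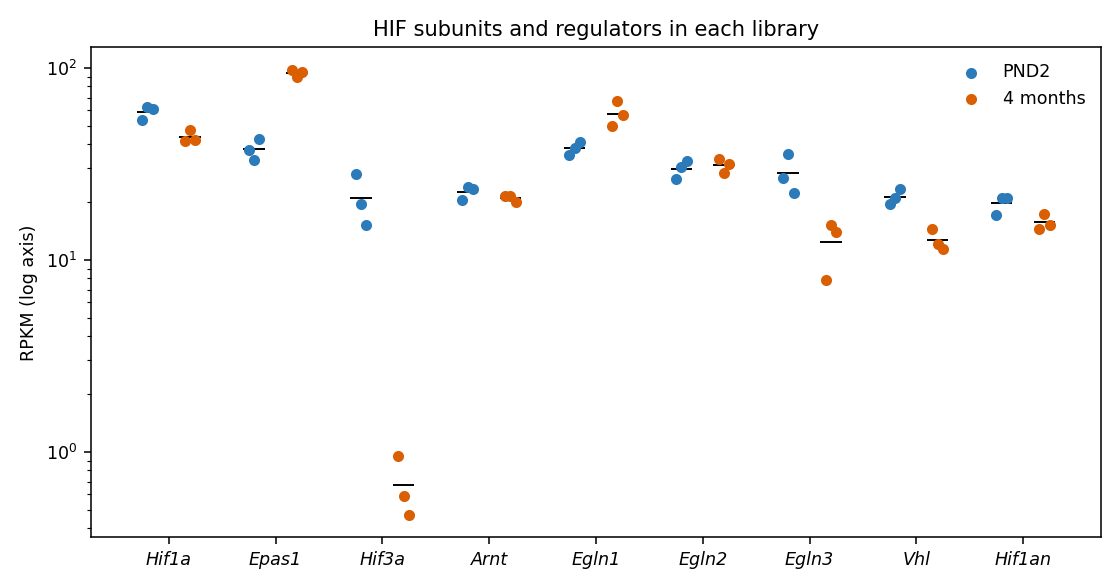
RPKM of the 9 genes in each library (points, blue for PND2 and orange for 4 months) with the mean of each age as a line, on a log axis. Hif3a lies between 15.1 and 28.1 at PND2 and between 0.469 and 0.954 at 4 months, while Arnt and Egln2 overlap between the ages.

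Library totals, inferred from the deposited values, ran from 23810507 to 38994657, and between 91 and 19393 reads lay behind each value of the 9 genes. The make-up of the samples differed with age. Smooth muscle markers summed to between 7382 and 8549 RPKM at PND2 and between 16638 and 27581 at 4 months (5 of 6 rose), and macrophage markers to between 255 and 280 and between 891 and 943 (5 of 6 rose). Summed endothelial markers lay between 651 and 869 at PND2 and between 399 and 409 at 4 months (7 of 10 fell). Cardiomyocyte markers were high at both ages, between 17930 and 20190 at PND2 and between 6467 and 11112 at 4 months (5 of 10 fell). Adipocyte markers came to between 69.3 and 152 and between 162 and 569 (7 of 8 rose), with Cidec, Lep and Retn listed at 0 in all PND2 libraries. Markers of dividing cells summed to between 44.0 and 82.6 at PND2 and between 6.27 and 6.57 at 4 months (8 of 8 fell). Of the valve interstitial markers 2 of 7 rose and 4 fell, with a median log2 difference of -0.77. Their sums lay between 6019 and 6492 at PND2 and between 7651 and 9667 at 4 months, so these summed markers were high at both ages. Erythroid markers overlapped between the ages, with 1865 to 2599 RPKM at PND2 and 750 to 2158 at 4 months (0 of 5 tested passed). The part of these shifts in the results was not tested, and in whole valves fewer cells of a type and less RNA per cell cannot be told apart.

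The promoters of Hif3a, Egln3 and Egln1 are shown here because all 3 genes differed between the ages and are known as genes that HIF itself can induce. Each sequence runs 5′ to 3′ on the gene's own strand from 250 bases before to 50 bases after the start site (RefSeq, GRCm38.p6), and capitals mark the core HIF-binding letters ACGTG or GCGTG on either strand, so that CACGC is a match read from the other strand. The windows are chr7:17062378-17062677 for Hif3a, chr12:54203825-54204124 for Egln3 and chr8:124949205-124949504 for Egln1, all on the minus strand.
Hif3a: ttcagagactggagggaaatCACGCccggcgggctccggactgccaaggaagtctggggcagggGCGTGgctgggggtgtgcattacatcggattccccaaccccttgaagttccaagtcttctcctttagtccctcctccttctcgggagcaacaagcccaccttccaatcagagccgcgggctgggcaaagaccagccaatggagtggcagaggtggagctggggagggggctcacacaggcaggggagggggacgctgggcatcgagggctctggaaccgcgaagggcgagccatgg
Egln3: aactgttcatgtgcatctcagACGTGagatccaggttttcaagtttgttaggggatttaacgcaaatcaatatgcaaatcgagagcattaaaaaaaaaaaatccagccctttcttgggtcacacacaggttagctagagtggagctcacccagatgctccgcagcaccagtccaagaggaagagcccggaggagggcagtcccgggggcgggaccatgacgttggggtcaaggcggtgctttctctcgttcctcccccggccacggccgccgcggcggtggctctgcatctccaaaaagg
Egln1: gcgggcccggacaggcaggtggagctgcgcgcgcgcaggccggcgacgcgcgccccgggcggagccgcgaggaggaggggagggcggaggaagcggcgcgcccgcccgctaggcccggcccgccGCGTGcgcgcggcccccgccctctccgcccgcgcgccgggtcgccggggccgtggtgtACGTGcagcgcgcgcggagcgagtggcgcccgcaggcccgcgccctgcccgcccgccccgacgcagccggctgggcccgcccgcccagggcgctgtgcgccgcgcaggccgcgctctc
Counted in bases from the start site, the Hif3a window held 2 matches, starting at -230 and -186, the Egln3 window held 1 match at -229, and the Egln1 window held 2, at -126 and -68. Promoter windows were at hand for 8 of the 9 genes, all but Epas1, and 7 of their 9 windows (Egln2 has 2) held the motif, against 43.8% of 32851 promoter windows. The windows of Vhl and Hif1an held none. A match of these letters is a description of the sequence and not a binding site.

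Among the alpha subunits, Hif3a (ENSMUSG00000004328, chr7:17031507-17062427 in mm10, minus strand) showed the largest difference of the 9 genes. It was at 28.1, 19.6 and 15.1 RPKM in PND2 replicates 1, 2 and 3 and at 0.954, 0.588 and 0.469 RPKM in the libraries of 4 months. All PND2 libraries lay far above all libraries of 4 months, although PND2 values themselves spread widely. The mean was 20.9 ± 6.58 RPKM at PND2 and 0.670 ± 0.253 at 4 months, a 31.2-fold lower level. Its log2 difference was -4.77 (SE 0.31, limma adjusted p = 9.1e-05), and only 28 of the 25903 genes tested (0.108%) had a lower one. At 4 months the gene was low but detected, with 239, 94 and 91 reads. The order of the PND2 libraries was also that of the summed markers of dividing cells (82.6, 72.2 and 44.0 RPKM). Erythroid sums (2599, 2516 and 1865 RPKM) and inferred library totals (38994657, 30518001 and 29260736) ran in the same order. Cardiomyocyte sums (17930, 18649 and 20190 RPKM) and smooth muscle sums (7382, 8474 and 8549 RPKM) ran in the reverse order. The ratio of Hif3a to the sum of dividing cell markers was 0.318 ± 0.0402 at PND2 and 0.105 ± 0.0365 at 4 months, without overlap. The exact permutation p was 0.1, the smallest that 3 libraries against 3 allow. This restates that Hif3a fell further than the dividing cell markers. A link of Hif3a with any of these sums or with the library totals was not tested. The only overlapping gene, RP23-391I5.6 on the other strand, shares no exon with it.

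Each of the 22 Hif3a exons that could be tested fell, while 1 short exon of 56 bases was not tested, with 2, 6 and 9 reads at PND2 and 0 in every library of 4 months. Exons needed at least 1 RPKM in 3 libraries to be tested, and those of Hif3a met this through PND2, where the gene was high. That all 22 fell is therefore no support separate from the whole gene. Exon differences on the log2 scale ran from -6.90 to -3.87, and those of exons at 0 reads at 4 months depend on the added 0.1. Most reads lay in the last exon of 4459 bases, which had 5722, 3040 and 2273 reads at PND2 and 190, 81 and 77 at 4 months (log2 difference -4.70, limma adjusted p = 2.4e-04). Upstream coding exons were also far lower at 4 months. An exon of 191 bases near the 5′ end, for example, was at 10.5, 12.01 and 9.30 RPKM at PND2 and at 0.280, 0.660 and 0 RPKM at 4 months.

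The 3 protein-coding genes whose profile over the 6 libraries was nearest to that of Hif3a, among 13743 with a mean of at least 1 RPKM, were Grid1, Pnliprp1 and Igf2bp3. Their Euclidean distances, on log2 values centred on each gene's mean, were 0.868, 0.900 and 0.955. Igf2bp3, an RNA-binding protein of fetal tissues, was at 10.6, 10.4 and 9.37 RPKM at PND2 and at 0.551, 0.319 and 0.440 RPKM at 4 months. Grid1, a glutamate receptor subunit, was between 2.56 and 3.16 RPKM at PND2 and between 0.0227 and 0.141 at 4 months. Pnliprp1, a pancreatic lipase-related protein, was between 2.15 and 3.10 RPKM at PND2 and was listed at 0 in 2 of the libraries of 4 months. Exons of Grid1 and Igf2bp3 overlap other annotated genes.

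Epas1 (ENSMUSG00000024140, chr17:86753907-86833410, plus strand) changed in the other direction. Its levels were 37.2, 33.2 and 42.5 RPKM at PND2 and 97.8, 89.6 and 95.2 RPKM at 4 months, where every library exceeded every PND2 library. The mean rose 2.50-fold, from 37.6 ± 4.65 to 94.2 ± 4.17 RPKM (log2 difference 1.33, SE 0.11, limma adjusted p = 2.3e-04), and 92.8% of all genes tested had a lower log2 difference. All 16 exons rose, by 0.98 to 1.42 on the log2 scale, and none overlaps an exon of another gene. Epas1 is known as an endothelial HIF, and the endothelial markers moved the opposite way. Its ratio to their sum was 0.0491 ± 0.00186 at PND2 and 0.233 ± 0.00920 at 4 months, 4.75-fold higher, which follows from the rise of Epas1 and the fall of the markers and is no separate test. Replicate 2 of 4 months had the lowest Epas1 of its age. It also had the highest adipocyte (569 RPKM), cardiomyocyte (11112) and erythroid (2158) marker sums and the lowest smooth muscle sum (16638). A link of these sums with Epas1 was not tested.

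Hif1a (ENSMUSG00000021109, chr12:73901375-73947530, plus strand) was the highest of the 9 genes at PND2. It was at 53.5, 62.3 and 61.1 RPKM at PND2 and at 41.5, 47.5 and 41.9 RPKM at 4 months, without overlap but with a gap that was small beside those of Hif3a and Epas1. The mean fell from 59.0 ± 4.80 to 43.6 ± 3.38 RPKM, to 0.740 of the PND2 level (log2 difference -0.43, SE 0.10, limma adjusted p = 0.0157). This call was the least stable of the 6. The adjusted p was 0.0562 without PND2 replicate 2, 0.0616 without PND2 replicate 3 and 0.0596 without replicate 3 of 4 months. Under median scaling the log2 difference was -0.31 (limma adjusted p = 0.0497), and a per-gene unequal-variance test with a floor of 10 reads, the study's own kind of test, gave an adjusted p of 0.0626.

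Along Hif1a, 12 of the 22 exons tested fell and 21 of 22 had a negative difference, with a median of -0.61 on the log2 scale. The exception was the last exon (chr12:73945552-73947530), with 149 coding bases among its 1979, most of it the 3′ untranslated region. It was at 36.5, 22.5 and 29.8 RPKM at PND2 and at 26.5, 34.4 and 36.9 RPKM at 4 months, so the ages overlapped (log2 difference 0.15, limma adjusted p = 0.663). Relative to the whole gene this exon differed by 0.59 between the ages, with an unadjusted p of 0.0537 and a limma adjusted p of 0.490. An upstream first exon (chr12:73901375-73901498) had 0 reads in every PND2 library and 1, 2 and 2 reads at 4 months, too few to compare. Gm15283, on the other strand, overlaps 5 of the Hif1a exon entries, and the 12 that fell are not among those 5.

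**Figure D2:**
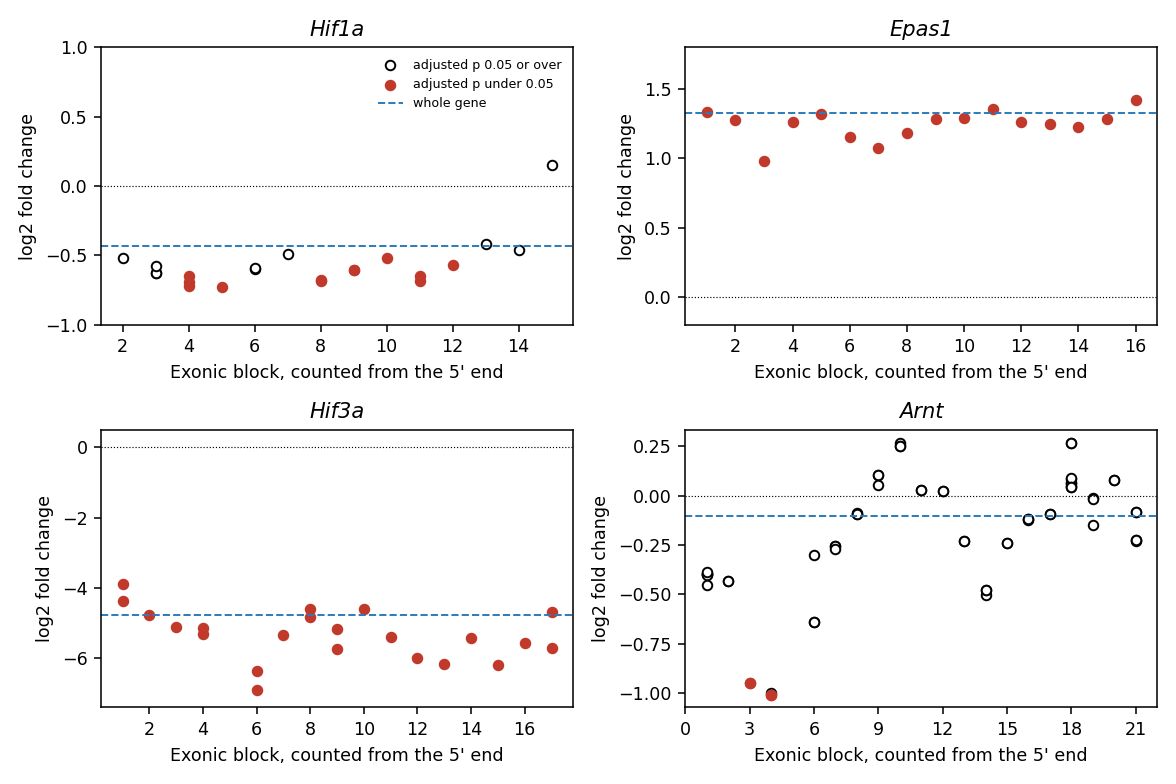
log2 difference of each tested exon (4 months minus PND2) against its place in the gene, as exonic blocks counted from the 5′ end, for Hif1a, Epas1, Hif3a and Arnt. Filled points have an adjusted p under 0.05 and the dashed line is the whole gene. All Epas1 points lie between 0.98 and 1.42, all Hif3a points between -6.90 and -3.87, and the last Hif1a exon alone lies above 0.

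The 3 alpha subunits together came to 118 ± 2.07 RPKM at PND2 and 139 ± 1.5 RPKM at 4 months, 1.18 times the PND2 sum. The make-up of this sum changed more than its size. Hif1a held 50.2 ± 4.68% of it at PND2 and 31.5 ± 2.63% at 4 months, and Epas1 held 32.0 ± 3.52% and 68.0 ± 2.56%. The share of Hif3a was 17.8 ± 5.49% at PND2 and 0.483 ± 0.176% at 4 months. Within each library the ratio of Epas1 to Hif1a was 0.696, 0.533 and 0.695 at PND2 and 2.36, 1.89 and 2.27 at 4 months, so Hif1a RNA was the higher in every PND2 library and Epas1 RNA in every library of 4 months. The geometric mean of the ratio differed 3.40-fold, which restates the opposite changes of both genes.

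**Figure D3:**
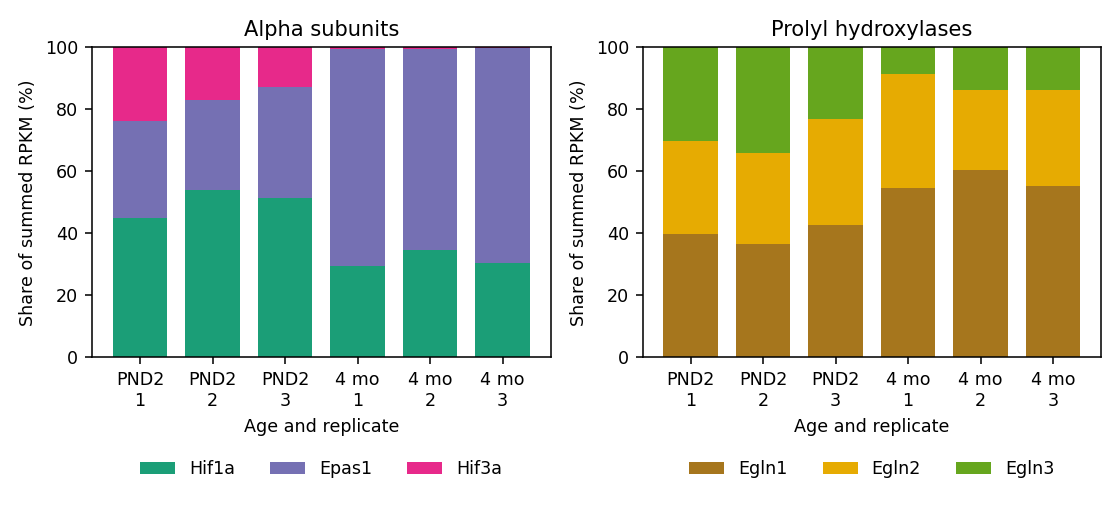
Share of each alpha subunit in the summed RPKM of Hif1a, Epas1 and Hif3a (left) and of each prolyl hydroxylase in the sum of Egln1, Egln2 and Egln3 (right), in percent, 1 bar per library. Epas1 takes 28.9 to 35.8% of the alpha subunits at PND2 and 65.1 to 69.7% at 4 months, and Egln3 takes 23.2 to 34.0% of the hydroxylases at PND2 and 8.66 to 13.8% at 4 months.

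Arnt (ENSMUSG00000015522, chr3:95434388-95497240, plus strand), the beta subunit with which all of these pair, was at 20.6, 23.9 and 23.4 RPKM at PND2 and at 21.5, 21.5 and 19.96 RPKM at 4 months, and the ages overlapped. Its means were 22.6 ± 1.79 and 21.0 ± 0.893 RPKM, a log2 difference of -0.11 with a 95% confidence interval from -0.34 to 0.13 (limma adjusted p = 0.461), and under median scaling the difference was 0.017. The summed alpha subunits were 5.22 ± 0.493 times Arnt at PND2 and 6.61 ± 0.253 times Arnt at 4 months, without overlap (exact permutation p = 0.1). Of 63 Arnt exon entries tested 4 fell, which are 2 exons of 45 bases each listed under 2 identifiers. At chr3:95460377-95460421 the levels were 75.8, 77.9 and 71.4 RPKM at PND2 and 47.6, 39.2 and 27.6 RPKM at 4 months (log2 difference -1.01, limma adjusted p = 0.0119). A longer entry of 492 bases has the same start. This coding exon is listed with exactly the ends given in 4 of the 5 coding transcripts that span it. Its use relative to the gene did not pass the test (limma adjusted p = 0.207), although that was the lowest adjusted p for exon use among the 9 genes.

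The prolyl hydroxylases fell into 3 patterns. Egln1 (PHD2, ENSMUSG00000031987, chr8:124908596-124949254, minus strand), known as the main oxygen sensor among them, was at 35.2, 38.3 and 41.1 RPKM at PND2 and at 49.5, 66.9 and 56.5 RPKM at 4 months. Every library of 4 months was above every PND2 library. The mean rose 1.51-fold, from 38.2 ± 2.99 to 57.7 ± 8.76 RPKM (log2 difference 0.59, SE 0.13, limma adjusted p = 0.0119), while the adjusted p was 0.0984 in the unequal-variance test. Of its 5 exons, the last of 2168 bases rose (0.70, limma adjusted p = 0.0172). Only 53 of its bases are coding, and it held most of the gene's reads. The other 4 exons had positive differences of 0.27 to 0.51 that did not pass.

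Egln3 (PHD3, ENSMUSG00000035105, chr12:54178981-54203860, minus strand), known for its strong induction by HIF, went the other way. It was at 26.7, 35.5 and 22.3 RPKM at PND2 and at 7.88, 15.2 and 14.0 RPKM at 4 months, with the lowest value in replicate 1 of 4 months and no overlap between the ages. The mean was 28.2 ± 6.69 RPKM at PND2 and 12.4 ± 3.94 RPKM at 4 months, 2.28-fold lower (log2 difference -1.21, SE 0.28, limma adjusted p = 0.0135), and all 5 exons fell, by 1.18 to 1.37 on the log2 scale. Without replicate 1 of 4 months the log2 difference was -0.92, which is under a fold of 2, and the unequal-variance test gave an adjusted p of 0.115.

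Egln2 (PHD1, ENSMUSG00000058709, chr7:27158658-27166802, minus strand) was at 26.2, 30.5 and 32.7 RPKM at PND2 and at 33.5, 28.5 and 31.6 RPKM at 4 months. These overlapped, with means of 29.8 ± 3.32 and 31.2 ± 2.54 RPKM and a log2 difference of 0.07 (95% confidence interval from -0.21 to 0.34, limma adjusted p = 0.690). None of its 12 exons was called (0 of 12), and Cyp2t4 on the other strand overlaps 2 of them.

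Together the hydroxylases came to 96.2 ± 8.09 RPKM at PND2 and 101 ± 9.90 RPKM at 4 months, which overlapped. Egln1 held 39.8 ± 3.01% of that sum at PND2 and 56.8 ± 3.25% at 4 months, and Egln3 held 29.2 ± 5.50% and 12.04 ± 2.93%. The ratio of Egln3 to Egln1 was 0.759, 0.927 and 0.543 at PND2 and 0.159, 0.228 and 0.247 at 4 months. Its geometric mean was 3.49-fold lower, which again restates the opposite changes of both genes. Set against their substrates, the summed hydroxylases were 0.819 ± 0.0822 of the summed alpha subunits at PND2 and 0.731 ± 0.0781 at 4 months, and this ratio overlapped between the ages (exact permutation p = 0.3).

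Vhl (ENSMUSG00000033933, chr6:113623959-113631633, plus strand), whose product recognises hydroxylated alpha subunits, was at 19.5, 20.9 and 23.3 RPKM at PND2 and at 14.5, 12.1 and 11.4 RPKM at 4 months. All PND2 libraries were above all libraries of 4 months. The mean fell from 21.3 ± 1.91 to 12.7 ± 1.61 RPKM, to 0.597 of the PND2 level (log2 difference -0.74, SE 0.13, limma adjusted p = 0.00463). Of 8 Vhl exon entries tested 4 fell, and all 8 had negative differences. The ratio of Vhl to Hif1a was 0.361 ± 0.0232 at PND2 and 0.293 ± 0.05003 at 4 months, and overlapped (exact permutation p = 0.2).

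Hif1an (ENSMUSG00000036450, chr19:44562850-44576274, plus strand) was at 17.2, 21.0 and 20.9 RPKM at PND2 and at 14.5, 17.4 and 15.2 RPKM at 4 months. The ages overlapped only through PND2 replicate 1 and replicate 2 of 4 months. Its means were 19.7 ± 2.17 and 15.7 ± 1.49 RPKM, a log2 difference of -0.32 with a 95% confidence interval from -0.62 to -0.03 before adjustment (limma adjusted p = 0.0864), and without PND2 replicate 1 the adjusted p was 0.0355. All 10 of its exons had negative differences, of which 0 passed the test.

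**Figure D4:**
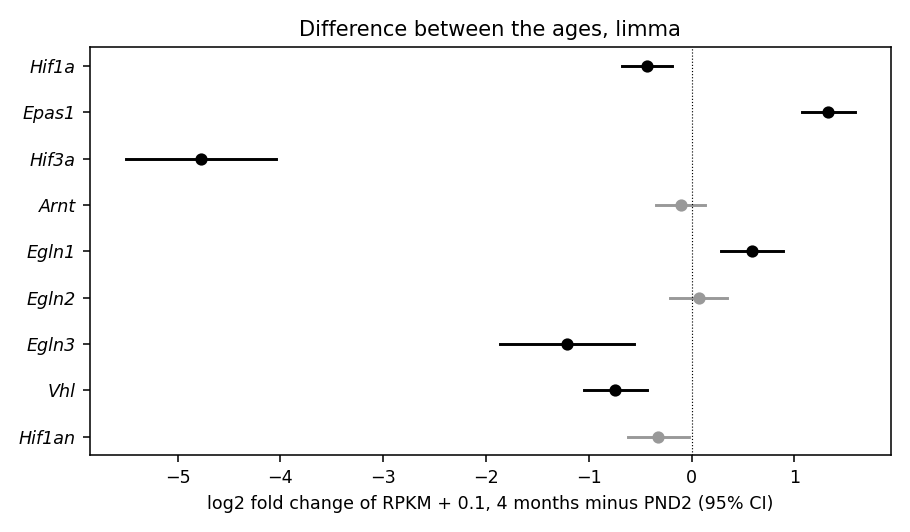
log2 difference of each gene between the ages (4 months minus PND2, on log2(RPKM + 0.1)) with its unadjusted 95% confidence interval from limma. Black marks an adjusted p under 0.05 and grey the rest. Hif3a is at -4.77 and Epas1 at 1.33, and the intervals of Arnt and Egln2 include 0.

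Ordered by level, Hif1a stood first at PND2 with 59.0 RPKM, followed by Egln1 (38.2) and Epas1 (37.6), whose ranges overlapped each other but not that of Hif1a. From Egln2 (29.8 RPKM) through Egln3, Arnt, Vhl and Hif3a to Hif1an (19.7 RPKM), each gene overlapped the next. At 4 months the order was Epas1, Egln1, Hif1a, Egln2, Arnt, Hif1an, Vhl, Egln3 and Hif3a, from 94.2 to 0.670 RPKM, and among neighbours in this order only Vhl and Egln3 overlapped. RPKM is per length, counted over all annotated exonic bases of a gene. The order, and ratios between genes, therefore also depend on how much of that sequence is used. At PND2 Arnt was at 22.6 RPKM as a gene. Its exon entries of 2436 and 167 bases were at 7.96 and 48.7 RPKM.

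Over all 9 genes, 163 of 168 exon entries were tested, of which 17 rose and 47 fell, against 23.1% of all exons called (8.96% that rose and 14.2% that fell). Entries of 1 gene overlap and share reads, so they are not independent. Of those that fell, 22 are Hif3a exons, which passed the filter on low values through PND2. For exon use relative to the gene, limma called 0 of the 163 entries, with 17 at an unadjusted p under 0.05, and called 0.0575% of all exons tested. Without PND2 replicates 2 or 3, the exon entries called numbered 29 and 26 instead of 64. The share of all exons called without these libraries is not given here, so this drop cannot be set against that of all exons. Gene calls, a different measure, were 27.1% and 25.4% of all genes tested without the same libraries, against 35.8% with all libraries.

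Among the relatives, ligase subunits and cofactors of the pathway, 15 of 37 genes tested passed, 6 of which rose and 9 fell. These were 40.5%, against 35.8% of all genes and 42.3% under a filter of at least 1 RPKM in 3 libraries. The median log2 difference of the 37 partners was -0.08. Under median scaling 7 rose and 5 fell, with 33.7% of all genes called. Without PND2 replicates 2 or 3 the calls numbered 9 and 8, with 27.1% and 25.4% of all genes called. Of the bHLH-PAS relatives, which share the dimerisation domains of the HIF subunits, 4 of 11 rose and 2 fell, against 14.7% and 21.1% of all genes. Npas2 and Arntl, partners in the circadian clock, rose from 4.88 ± 0.316 to 14.8 ± 6.82 RPKM (limma adjusted p = 0.00671) and from 11.1 ± 0.659 to 25.1 ± 10.1 RPKM (limma adjusted p = 0.0125). Both were highest in replicate 1 of 4 months, at 22.7 and 36.8 RPKM. Npas4, an activity-induced factor, rose from 2.95 ± 1.1 to 8.74 ± 2.78 RPKM (limma adjusted p = 0.00898). Arnt2, the close relative of Arnt, fell from 7.52 ± 0.235 to 4.95 ± 0.876 RPKM (limma adjusted p = 0.0281), with an adjusted p of 0.0528 under median scaling.

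Of the 6 listed subunits and activators of the ubiquitin ligase that VHL directs, 0 rose and 3 fell, against 14.7% of all genes that rose and 21.1% that fell, with a median log2 difference of -0.35 beside -0.14 over all genes. Cul2, the cullin scaffold, fell from 24.4 ± 2.89 to 18.0 ± 2.70 RPKM (limma adjusted p = 0.0490). The elongin subunit Tceb2 fell from 246 ± 5.28 to 185 ± 31.3 RPKM (limma adjusted p = 0.0450). Under median scaling their adjusted p were 0.151 and 0.119. Tceb1, the other elongin, was at 33.5 ± 4.95 and 32.3 ± 1.15 RPKM (limma adjusted p = 0.823). Exons of Tceb2 overlap those of Srrm2 on the other strand.

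Of the 20 cofactors and stability regulators, 2 rose and 4 fell (6 of 20 called, against 35.8% of all genes). Cited4, which competes for the coactivators of HIF, fell from 15.0 ± 1.48 to 5.09 ± 0.272 RPKM (log2 difference -1.54, limma adjusted p = 2.4e-04). Cited2, its better known relative, was at 20.6 ± 2.13 and 26.1 ± 4.06 RPKM (limma adjusted p = 0.108). Cdkn2a, which encodes the cell cycle inhibitors p16 and p19ARF, was near the limit of detection at PND2 with 3, 8 and 2 reads and had 43, 24 and 103 reads at 4 months (limma adjusted p = 0.00658).

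Known HIF target genes did not move one way. Of 77 tested, 12 rose, 23 fell and 42 did not pass, so that 45.5% were called, against 35.8% of all genes (14.7% that rose and 21.1% that fell). Their median log2 difference was -0.08 beside -0.14 over all genes. Under a filter of at least 1 RPKM in 3 libraries, 42.3% of 20165 genes were called, nearer to the share of the targets. The lists were written by hand, and many of the listed genes also answer to other signals. Vegfa, the vascular growth factor, was at 61.3 ± 5.49 RPKM at PND2 and 64.9 ± 9.73 RPKM at 4 months (log2 difference 0.08, 95% confidence interval from -0.23 to 0.38, limma adjusted p = 0.684). The glucose transporter Slc2a1 was at 19.7 ± 2.43 and 18.9 ± 1.97 RPKM (limma adjusted p = 0.757), and the mitophagy receptor Bnip3 was at 23.6 ± 9.86 and 29.7 ± 6.24 RPKM (limma adjusted p = 0.332). The carbonic anhydrase Car9 was at 3.98 ± 1.20 and 5.12 ± 1.01 RPKM (limma adjusted p = 0.292), and Ankrd37 was at 2.44 ± 0.435 and 2.18 ± 0.390 RPKM (limma adjusted p = 0.647). Exons of Slc2a1, Car9 and Ankrd37 overlap other annotated genes.

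Of the 23 genes of glucose uptake and glycolysis 4 rose and 9 fell (56.5% called, against 35.8% of all genes, 14.7% that rose and 21.1% that fell), with a median log2 difference of -0.42 beside -0.14 over all genes. The 4 that rose are named after their values were seen. Pfkfb3 and Pfkfb4, which make the activator of phosphofructokinase, rose 2.03-fold (limma adjusted p = 0.0111) and 1.94-fold (limma adjusted p = 0.00688), and the phosphofructokinase Pfkp and the pyruvate kinase Pkm rose 1.36-fold (limma adjusted p = 0.0247) and 1.27-fold (limma adjusted p = 0.0403). Exons of Pfkp overlap Pitrm1 on the other strand. Ldha, which makes lactate from pyruvate, fell from 210 ± 15.4 to 151 ± 29.6 RPKM (limma adjusted p = 0.0410). Pdk1, which holds pyruvate back from the mitochondria, fell from 16.97 ± 1.32 to 10.8 ± 3.46 RPKM (limma adjusted p = 0.0423). Under median scaling the adjusted p were 0.125 for Ldha and 0.0966 for Pdk1. The glycogen synthase Gys1 fell from 31.5 ± 4.06 to 15.5 ± 3.08 RPKM (limma adjusted p = 0.00329). Its exons overlap Ruvbl2 on the other strand.

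Vascular and secreted targets moved both ways, with 3 of 20 that rose and 6 that fell (45.0% called, against 35.8% of all genes). Nos2, the inducible nitric oxide synthase, was low and rose from 0.413 ± 0.107 to 1.27 ± 0.588 RPKM (limma adjusted p = 0.0386). Edn1, the vasoconstrictor endothelin-1, was 3.91-fold lower at 4 months, at 8.77 ± 0.817 RPKM against 34.3 ± 7.04 (limma adjusted p = 2.3e-04). The secreted lipase inhibitor Angptl4 was 3.11-fold lower (51.9 ± 8.81 to 16.7 ± 2.47 RPKM, limma adjusted p = 4.3e-04), and the chemokine Cxcl12 was 2.30-fold lower (limma adjusted p = 0.00311). Tek, the endothelial receptor of angiopoietins, was 2.08-fold lower (limma adjusted p = 0.00220), beside the lower endothelial markers given above.

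Of the 8 collagen hydroxylases and matrix genes 0 rose and 5 fell (62.5% called, against 35.8% of all genes, 14.7% that rose and 21.1% that fell), with a median log2 difference of -0.73 beside -0.14 over all genes. Lox, the lysyl oxidase that crosslinks collagen and elastin, was 5.30-fold lower at 4 months, at 52.5 ± 7.04 RPKM against 278 ± 28.7 (limma adjusted p = 4.65e-05). Its relative Loxl2 was 3.20-fold lower (limma adjusted p = 0.00194), and the fibrillar collagen gene Col5a1 was 2.57-fold lower (limma adjusted p = 8.0e-04). Exons of Loxl2 and Col5a1 overlap other annotated genes.

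Of the 13 genes of mitochondria, pH and iron 1 rose and 1 fell (15.4% called, against 35.8% of all genes). They were transferrin and its receptor. Tfrc, the transferrin receptor, fell from 34.7 ± 4.60 to 10.7 ± 2.21 RPKM (log2 difference -1.69, limma adjusted p = 5.2e-04), and Trf, transferrin itself, rose from 60.6 ± 5.52 to 148 ± 7.75 RPKM (log2 difference 1.29, limma adjusted p = 1.7e-04). Of the 13 tested genes of transcription and growth control 4 rose and 2 fell (46.2% called). Rora, a nuclear receptor of the circadian clock, rose 3.21-fold (limma adjusted p = 3.4e-04), the clock repressor Bhlhe41 rose 2.56-fold (limma adjusted p = 0.00482), and the stress-responsive gene Ndrg1 rose 2.18-fold (limma adjusted p = 0.00102). Exons of Trf, Rora, Bhlhe41 and Ndrg1 overlap other annotated genes.

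**Figure D5:**
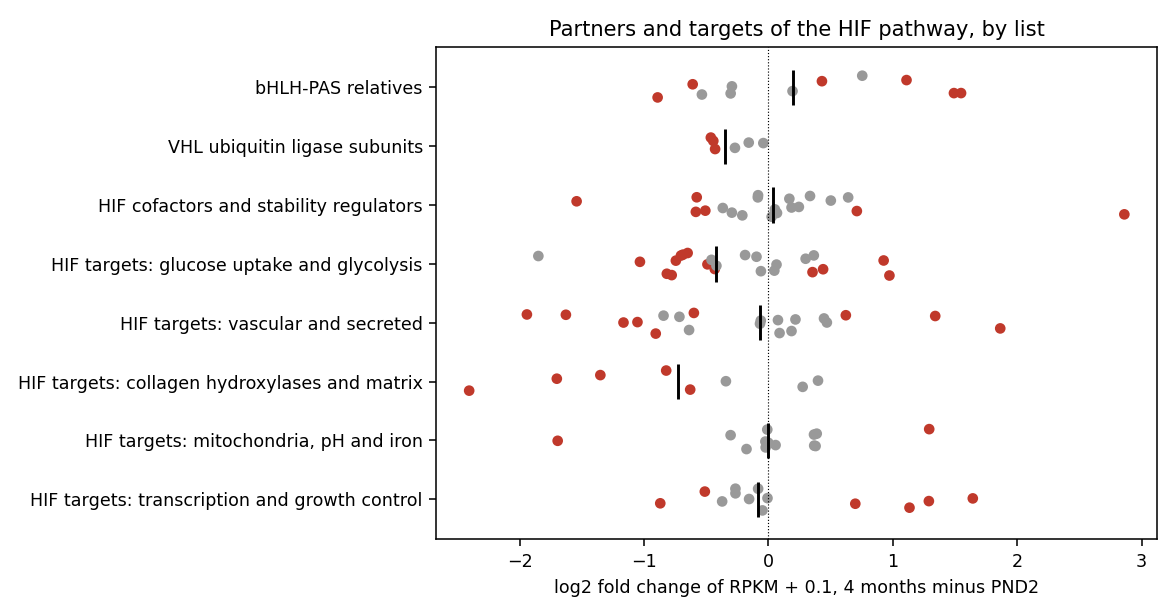
log2 difference of each tested gene (4 months minus PND2, on log2(RPKM + 0.1)) in the 8 lists of HIF partners and targets, red with an adjusted p under 0.05 and grey otherwise, with the median of each list as a line. The medians run from -0.73 for the collagen hydroxylases and matrix genes to 0.19 for the bHLH-PAS relatives.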

How the data were processed

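Aortic valve RNA was sequenced at PND2 and at 4 months, with 3 pooled libraries per age, made with a stranded kit. After filtering and trimming, the authors used TopHat2 2.1.0 for alignment to mm10 and easyRNASeq for counting, and deposited RPKM values per gene and per exon, scaled by exonic length and library total. R 3.2.2 is also named in the submitters' processing notes. Whether counting used strand is not stated, so values of overlapping genes are uncertain. Multiplying RPKM by exonic length and library total gave whole reads (within 0.01) for 100.0% of values, and reads over genes came to 2.31 to 2.36 times the totals, and the source of this excess was not tested. Library totals and read counts give the depth, with counting error only.

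From these values limma 3.58.1 (R 4.3.3, eBayes with trend) was fitted to log2(RPKM + 0.1) of genes with at least 0.1 RPKM in 3 libraries, and of exons with at least 1 RPKM in 3 libraries. Exon use was the log2 exon value minus that of its gene. Adding 0.1 understates the change of low genes. Ratios were compared with exact 2-sided permutation tests. Tables and figures used pandas 2.3.3, numpy 2.4.6, matplotlib 3.10.9 and scipy 1.17.1 under Python 3.11.15, and the fits were tested on simulated data. Alternatives were other pseudocounts (1 and 0.01), other filters, no trend, median scaling, quantile normalization, voom on the recovered reads, a replicate block, the study's unequal-variance test with a floor of 10 reads, and fits that each left out 1 library.

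The 9 genes, the lists of partners and targets and the marker lists were chosen with earlier results of these data known. By rule, the text names all 9 genes, listed genes with an adjusted p under 0.05 and an absolute log2 difference of at least 1 (at most 5 in each direction per list), 12 listed genes whatever their result, and the 3 nearest profiles to the gene with the largest difference. A gene that this rule names among the vascular and secreted targets is not reported here. Gene and exon positions are those of mm10 given with the deposited values, whose annotation was Ensembl according to the paper. Overlaps were read from the same positions. Coding bases and coding transcripts were taken from GENCODE.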

Additional observations from a re-analysis of the deposited data

How the results depend on the processing

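Over 16 alternatives Epas1, Hif3a and Vhl were called in 16, Egln1 and Egln3 in 15, Hif1a in 12, Hif1an in 1, and Arnt and Egln2 in 0, with log2 differences of 1.24 to 1.45 for Epas1, -5.02 to -3.68 for Hif3a, -0.84 to -0.62 for Vhl and -0.50 to -0.31 for Hif1a. Under the unequal-variance test with a floor of 10 reads, 3 of the 9 genes were called (adjusted p 0.0984 for Egln1, 0.115 for Egln3 and 0.0626 for Hif1a), with 10 targets, 2 partners and 3131 genes in all, against 9273. Each library left out in turn gave 5 to 7 of the 9 genes called, 2 to 3 with a fold over 2, 24 to 32 targets, 8 to 13 partners (9 and 8 without PND2 replicates 2 and 3), 26 to 58 exon entries (29 and 26 without the same libraries) and 0 for exon use. The gene fits among these called 24.9 to 34.1% of all genes tested (27.1% and 25.4% without PND2 replicates 2 and 3), against 35.8% with all libraries. For exon entries, the share of all exons called under an alternative is not given here. Without PND2 replicate 1, Hif1an was called.

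The calls split into 3810 that rose and 5463 that fell. Median scaling gave 4601 and 4129, and quantile normalization 4247 and 4797. Partners that rose and fell then numbered 7 and 5, and 7 and 6. Small differences changed sign for Arnt (0.017), Slc2a1 (0.061) and Tceb1 (0.080) under median scaling, and for Slc2a1 (0.012) and Tceb1 (0.028) under quantile normalization. Leaving out 1 library gave -0.021 (without PND2 replicate 1) to 0.139 for Egln2, -0.154 to 0.024 (without PND2 replicate 1, and 0.022 without replicate 2 of 4 months) for Slc2a1, -0.144 to 0.068 (without PND2 replicate 1) for Tceb1, and -0.041 (without replicate 2 of 4 months) to 0.162 for Vegfa. The causes were not tested.

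Deviations of same-numbered libraries from their age means correlated at 0.0439, -0.0608 and -0.160, and those of differently numbered libraries at -0.176 to 0.233. Deviations of 3 libraries sum to 0 within an age, so these values cannot decide whether replicate numbers paired the libraries. With the replicate block 6 of the 9 genes, 30 targets, 9 partners and 55 exon entries were called, and 7167 genes in all.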
